A study of Mus musculus with 4 samples.

Results

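The metallothionein and Nrf2 redox genes are 10 mouse genes for metal and oxidative stress, chosen by name from 23990 gene symbols: Mt1, Mt2, Slc30a1, Hmox1, Nqo1, Gclm, Txnrd1, Srxn1, Nfe2l2 and Prdx1. All 10 had a row in the expression tables. They were followed in effector CD4 T cells (CD44+CD4) that were sorted from wild type mice (C57BL/6 in the labels, C57BL/6J in the study's methods) with experimental autoimmune encephalomyelitis (EAE), a T cell-driven inflammation of the spinal cord that is induced by immunization with a myelin oligodendrocyte glycoprotein (MOG) peptide. Cells were taken at disease onset from the spinal cord (CNS) or from pooled draining lymph nodes (dLN), with 2 libraries per tissue, and the comparison asks how the cells that have entered the CNS differ from those in the periphery. The study's methods state that the sorted cells of both tissues were stimulated for 4 h with PMA and ionomycin before RNA was purified, whereas the labels call the cells freshly sorted and name no stimulation. Age and the number of mice behind each library are not given in the sources used here, so the p-values measure only the spread between these libraries, which may be technical.

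Nrf2, the product of Nfe2l2, is a transcription factor that Keap1 holds in the cytoplasm and hands over for degradation. Oxidants and electrophiles modify Keap1, and Nrf2 then enters the nucleus, pairs with a small Maf protein and binds antioxidant response elements (AREs) near genes for glutathione synthesis, thioredoxin reduction and haem breakdown, while Bach1 and Bach2 occupy the same elements as repressors. Metallothioneins are small cysteine-rich proteins that bind zinc and copper, and they are induced through Mtf1, a zinc-sensing factor that binds metal response elements (MREs). In T cells these systems keep the thiols of enzymes and signalling proteins reduced during activation.

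Promoter sequence is shown for the 3 members of the thioredoxin and peroxiredoxin system whose RNA was at least 2-fold lower in CNS. It is also shown for Mt2, which held more MRE matches than any other member with a promoter entry. The promoters of Mt1 and Slc30a1, which are also targets of Mtf1, are not shown. Of the members, 9 matched RefSeq's promoter table (build GRCm38.p6), with 11 promoters, and Hmox1 had no entry. The 250 bases before each start were searched on both strands for the ARE (TGACNNNGC or TGAGNNNGC), the MRE (TGCACNC or TGCGCNC) and the AP-1 site (TGACTCA or TGAGTCA). Among 32851 RefSeq promoters, 23% held an ARE match, 21.4% an MRE match and 4.46% an AP-1 match. The ARE was first searched as TGACNNNGC alone, which is found in 10.2% of the promoters, and TGAGNNNGC was added after those matches had been seen. With the first letters neither Srxn1 nor the upstream match of Slc30a1 was found, and the other ARE matches given here were. Capitals mark ARE matches in the following 3 promoters, which all lie on the plus strand.
Srxn1, chr2:152105274-152105523: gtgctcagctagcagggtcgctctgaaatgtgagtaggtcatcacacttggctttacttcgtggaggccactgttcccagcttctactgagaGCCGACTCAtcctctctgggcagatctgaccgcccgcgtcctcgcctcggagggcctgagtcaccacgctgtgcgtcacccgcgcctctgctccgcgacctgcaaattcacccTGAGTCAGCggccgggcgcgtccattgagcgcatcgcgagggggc
Txnrd1, chr10:82858956-82859205: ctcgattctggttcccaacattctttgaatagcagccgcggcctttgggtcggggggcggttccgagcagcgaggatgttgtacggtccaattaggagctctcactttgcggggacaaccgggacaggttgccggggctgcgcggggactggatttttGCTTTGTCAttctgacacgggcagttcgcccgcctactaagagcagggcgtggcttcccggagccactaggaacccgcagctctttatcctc
Prdx1, chr4:116685349-116685598: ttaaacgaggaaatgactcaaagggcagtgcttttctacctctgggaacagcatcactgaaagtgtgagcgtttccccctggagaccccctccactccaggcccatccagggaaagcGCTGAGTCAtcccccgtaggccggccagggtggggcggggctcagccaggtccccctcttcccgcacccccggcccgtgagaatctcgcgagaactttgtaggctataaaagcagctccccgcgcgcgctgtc

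The Srxn1 promoter held 2 ARE matches, which began 158 and 45 bases before the start, and the nearer one, TGAGTCAGC, overlapped an AP-1 match. The Txnrd1 match lay 92 bases before the start that the transcripts with most of its FPKM use. The Prdx1 match lay 133 bases before the start and also overlapped an AP-1 match. An ARE match was likewise present in the promoters of Gclm, Slc30a1, Nfe2l2 and Mt2, of which the one in Mt2 overlapped an AP-1 match. In the Mt2 promoter, on the plus strand, capitals mark the 3 MRE matches, a number reached by 1.26% of all promoters.
Mt2, chr8:94172368-94172617: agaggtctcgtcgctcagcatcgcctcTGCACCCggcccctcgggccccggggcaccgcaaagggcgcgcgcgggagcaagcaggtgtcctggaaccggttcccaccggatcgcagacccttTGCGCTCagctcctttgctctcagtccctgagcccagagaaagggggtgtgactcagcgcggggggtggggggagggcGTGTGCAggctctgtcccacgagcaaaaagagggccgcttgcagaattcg

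The Mt2 matches began 223, 128 and 50 bases before the start. The window of Mt1 held 1 MRE match, and those of Gclm, Slc30a1 and Srxn1 held 2, 1 and 1. No ARE match was found in the windows of Mt1 and Nqo1. These are matches of letters, not measured binding sites.

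Each library is described by FPKM, a fragment count normalized to transcript length and to the mapped fragments of the library, summed over the transcripts of a symbol. The steps between low FPKM values gave estimated depths of 18.6 to 22.0 M fragments per library, with 84.2 to 87.8% of low values whole within 0.05 of a fragment. Replicates of CNS correlated at a Pearson r of 0.976 across genes and those of dLN at 0.986. All 13 T cell markers were detected, of which 7 were called higher in CNS, 3 were called lower and 3 were not called. Cd4, among those called higher, was at 502 and 531 FPKM in CNS and at 82.0 and 66.7 in dLN. The 22 listed genes that T cell stimulation induces had 16 called lower and 1 called higher in CNS, and Il2 stood at 18.2 and 38.8 FPKM in CNS against 5363 and 6176 in dLN. The 1 called higher was Cd69, at 516 and 510 FPKM in CNS against 189 and 221 in dLN. The counts of 16 and 1 depend on the list. Jun, Fos, Fosb, Junb, Ier2, Dusp1 and Atf3 were counted with the heat-shock and dissociation genes. Jun was higher in CNS, at 293 and 391 FPKM against 13.8 and 14.4 in dLN. Fos was at 442 and 574 FPKM in CNS against 43.6 and 58.9 in dLN, and Fosb, Junb, Ier2 and Dusp1 were also called higher. Atf3 was lower in CNS, at 12.2 and 42.2 FPKM against 92.5 and 115. Summed markers of macrophages and microglia were at 481 FPKM in CNS replicate 2 against 195 in CNS replicate 1, those of neutrophils at 227 against 2.85 and those of astrocytes at 44.7 against 9.99, whereas those of oligodendrocytes were at 152 against 163. In dLN the macrophage and microglia sum was 38.4 and 30.3, and 10 of 19 of those markers, Csf1r and C1qa among them, were at 0 in both libraries. The Y-linked gene Eif2s3y had 44.7 and 34.7 FPKM in CNS and was at 0 in dLN, whereas Xist was at 0 and 0.003 in CNS and at 26.6 and 22.3 in dLN, so tissue and the sex of the mice cannot be told apart.

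Of the 10 stress genes, 5 were called lower and 1 higher in CNS than in dLN effector cells, where 37.2% of all genes tested were called lower and 37.8% higher. Sulfiredoxin (Srxn1) was 30.4 times as high in dLN, Hmox1 3.81 times, Txnrd1 2.55 times and Prdx1 2.01 times, whereas Nfe2l2, which encodes Nrf2 itself, was 1.9 times as high in CNS. Of the 10 members, 9 passed the filter (a tissue mean of 1 FPKM or more in either tissue), and each of those had a mean above 1 FPKM in both. In limma on log2(FPKM + 1), adjusted by Benjamini-Hochberg over all 10634 genes tested, 6 of 9 were called at 0.05, and Mt1, Mt2 and Slc30a1 did not pass. The background is high, because 74.9% of all genes tested were called. Of the 9 tested members 4 were called at least 2-fold lower in CNS, beside 18.2% of all genes. The libraries of the tissues did not overlap for 8 of 9 tested members, beside 89.4% of all genes. The median log2 ratio of CNS to dLN was -1.0 over the tested members and 0.05 over all genes. All fold changes from the fit are on the log2(FPKM + 1) scale, on which the change of low genes is understated, and an exact permutation test of 2 against 2 libraries cannot go below p = 0.333.

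**Figure D1:**
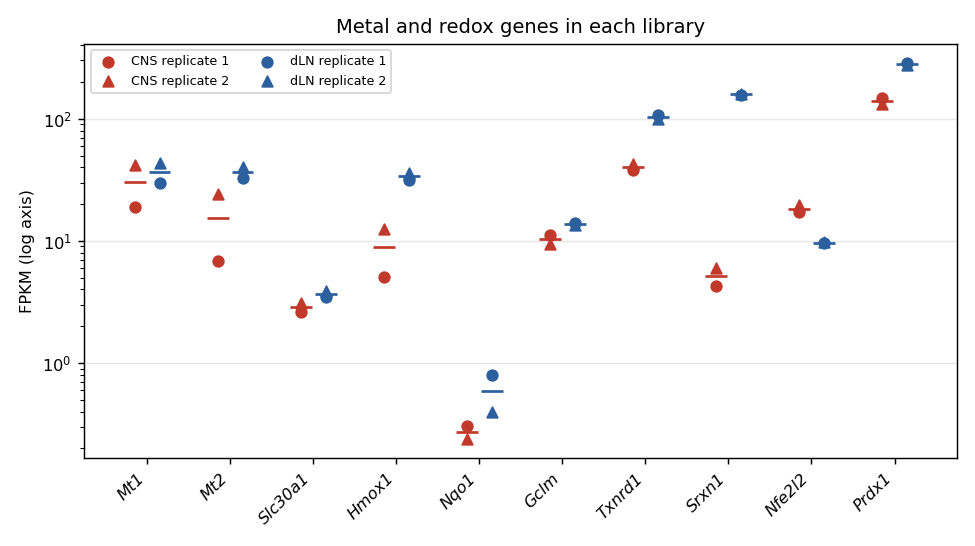
FPKM (log axis) of the 10 members in each of the 4 libraries, with points for single libraries of CNS and dLN. Srxn1 stood at 4.31 and 6.04 in CNS and at 157 and 158 in dLN, and only Mt1 had overlapping tissues.

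**Figure D2:**
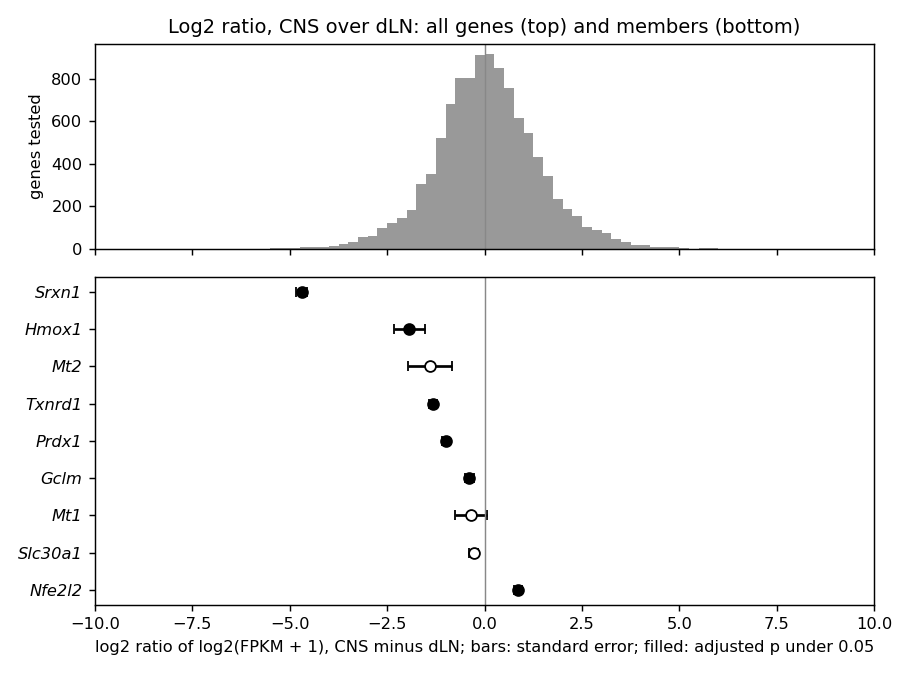
Log2 ratio of CNS to dLN for the 9 tested members, with standard errors from limma, beside the distribution of the ratio over all 10634 genes tested. The ratios ran from -4.70 for Srxn1 to 0.86 for Nfe2l2, and the median of all genes was 0.05.

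Srxn1 encodes sulfiredoxin, which repairs peroxiredoxins whose active cysteine has been overoxidized by peroxide. Its level was 4.31 and 6.04 FPKM in the CNS libraries and 157 and 158 FPKM in the dLN libraries. Every dLN library was therefore far above every CNS library, while both dLN libraries were nearly alike. The log2 ratio was -4.70 ± 0.15 (SE, n = 2 per tissue, limma adjusted p = 8.12e-05), and 25 of 10634 genes had a lower ratio. Prdx1, a peroxiredoxin that removes hydrogen peroxide and is a substrate of sulfiredoxin, was at 149 and 132 FPKM in CNS and at 287 and 277 FPKM in dLN. The tissues did not overlap, and the log2 ratio was -1.0 ± 0.09 (SE, n = 2 per tissue, limma adjusted p = 0.000549). Within a library, where scaling does not enter, Srxn1 amounted to 2.9 and 4.59% of the Prdx1 FPKM in CNS and to 54.9 and 56.9% in dLN. The repair enzyme thus fell further than its substrate by this measure.

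Txnrd1 encodes the cytosolic thioredoxin reductase, which returns electrons from NADPH to thioredoxin. It was at 37.9 and 43 FPKM in CNS and at 107 and 99.6 FPKM in dLN, again without overlap. The log2 ratio was -1.33 ± 0.10 (SE, n = 2 per tissue, limma adjusted p = 0.000313). Of its 4 transcripts, NM_001042513, which starts at position 82859206 of chromosome 10, held 70.2 and 82.1% of the gene's FPKM in CNS and 68.7 and 73.2% in dLN. The second transcript with that start, NM_015762, held 24.6 and 10.7% in CNS and 27.2 and 24.6% in dLN, so the same transcripts led in both tissues. As transcripts of a gene share most of their sequence, the split between them is uncertain.

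The other 18 listed thioredoxin and peroxiredoxin genes did not move in 1 direction: 8 were called higher and 7 lower in CNS, and their log2 ratios had a median of 0.33. The largest rise was that of Txnip, which encodes the protein that binds and inhibits reduced thioredoxin. Its level was 219 and 192 FPKM in CNS and 5.55 and 4.83 FPKM in dLN, a log2 ratio of 5.06 ± 0.11 (SE, n = 2 per tissue, limma adjusted p = 8.12e-05). Thioredoxin itself (Txn1) was at 253 and 243 FPKM in CNS and at 204 and 191 FPKM in dLN, so that Txnip came to 86.7 and 78.9% of Txn1 in CNS and to 2.72 and 2.53% in dLN. Among the peroxiredoxins Prdx2 rose in CNS, to 117 and 125 FPKM from 47.7 and 40 FPKM, and the mitochondrial Prdx3 fell by 0.79 on the log2 scale. Msrb1, a methionine sulfoxide reductase, was at 32.5 and 41.5 FPKM in CNS and at 7.42 and 5.03 FPKM in dLN. Sesn2, a stress-induced sestrin, was at 3.23 and 4.29 FPKM in CNS and at 31.3 and 37.7 FPKM in dLN, and Txnl1 fell by 1.08 on the log2 scale. Txnrd3, a further thioredoxin reductase, had an estimated 2.0 and 13.0 fragments in CNS and 13 and 15 FPKM in dLN, so no fold is given.

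**Figure D3:**
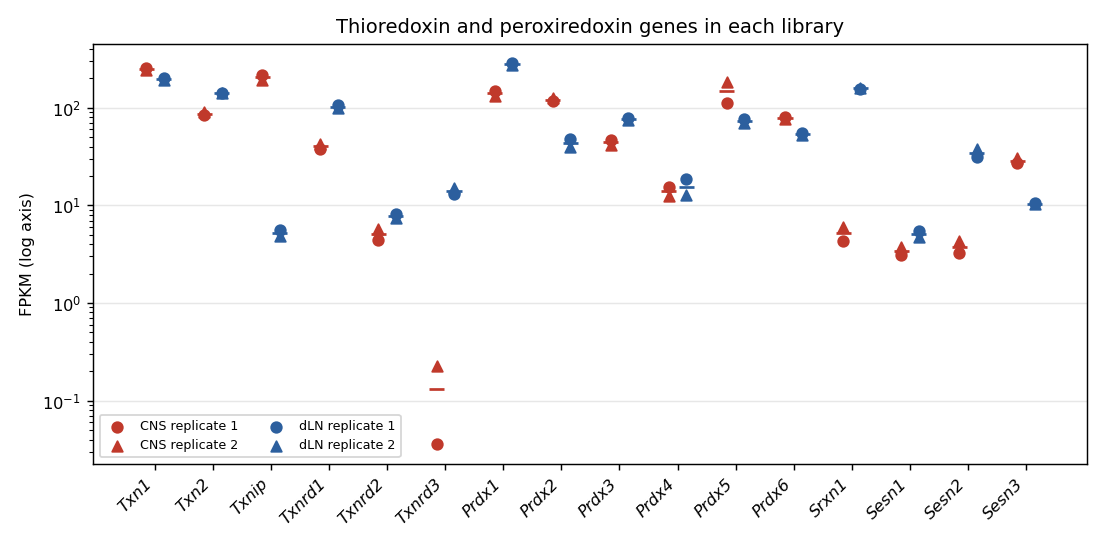
FPKM (log axis) of genes of the thioredoxin and peroxiredoxin system in each of the 4 libraries, points being single libraries. Txnip and Srxn1 moved in opposite directions, Txnip at 219 and 192 in CNS against 5.55 and 4.83 in dLN, while Txn1 was between 191 and 253.

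Gclm encodes the modifier subunit of glutamate-cysteine ligase, the enzyme that limits glutathione synthesis. It was at 11.2 and 9.42 FPKM in CNS and at 14.1 and 13.5 FPKM in dLN. The dLN libraries were both above the CNS libraries, but the difference was small, with a log2 ratio of -0.39 ± 0.11 (SE, n = 2 per tissue, limma adjusted p = 0.0278). Scaling each library to the same upper quartile ended this call, with a log2 ratio of -0.17, and so did leaving out CNS replicate 2 (-0.27), dLN replicate 1 (-0.36) or dLN replicate 2 (-0.42). Gclc, the catalytic subunit of the same enzyme, was at 10.7 and 10.2 FPKM in CNS and at 25.9 and 27.1 FPKM in dLN, a log2 ratio of -1.26 ± 0.09 (SE, n = 2 per tissue, limma adjusted p = 0.00025). The catalytic subunit's RNA amounted to 95.6 and 108% of that of the modifier in CNS and to 184 and 200% in dLN.

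Of the 22 tested genes of the glutathione list, 9 were called higher and 11 lower in CNS, around a median of -0.26 on the log2 scale; upper-quartile scaling made this 9 and 9, and scaling to the same sum of FPKM 6 and 11. Chac1, which degrades glutathione, was at 0.505 and 0.603 FPKM in CNS and at 22.6 and 25.6 FPKM in dLN. Slc3a2, the heavy chain of the cystine transporter and of other amino acid transporters, fell by 1.10 on the log2 scale, and Slc7a11, the light chain that carries cystine, lay under the filter at 0.177 and 0.6 FPKM in CNS and 0.167 and 0.165 FPKM in dLN. Gpx4, which uses glutathione to reduce lipid peroxides, went the other way, with 128 and 142 FPKM in CNS and 18.1 and 16 FPKM in dLN. Gstp1, a glutathione transferase, was at 174 and 179 FPKM in CNS and at 43.8 and 36 FPKM in dLN, and Ggct, which acts on gamma-glutamyl dipeptides, rose by 1.90. Gstt2 fell by 1.73 on the log2 scale.

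Hmox1 encodes haem oxygenase 1, which breaks haem down to biliverdin, carbon monoxide and iron. It was at 5.1 and 12.6 FPKM in CNS and at 31.7 and 35.8 FPKM in dLN. The tissues did not overlap, but the CNS libraries differed by 2.47 times. The log2 ratio was -1.93 ± 0.39 (SE, n = 2 per tissue, limma adjusted p = 0.00794), and it was -2.51 without CNS replicate 2 and -1.35 without CNS replicate 1. The summed macrophage and microglia markers also differed by 2.47 times between the CNS libraries, and 17 of 19 of them were higher in CNS replicate 2. The summed markers of astrocytes, neurons and neutrophils were higher there as well, whereas those of oligodendrocytes were not. The part of these other cell types in the Hmox1 level was not tested. The constitutive Hmox2 was at 40.2 and 43.3 FPKM in CNS and at 31.8 and 28 FPKM in dLN, so that Hmox1 was at 12.7 and 29.1% of Hmox2 in CNS and at 99.6 and 128% in dLN.

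Nqo1, a quinone reductase often used as a readout of Nrf2, was barely detected. It was at 0.307 and 0.238 FPKM in CNS and at 0.791 and 0.397 FPKM in dLN, below the filter, and was not tested. These values correspond to an estimated 9 and 7 fragments in CNS and 20 and 12 in dLN, with exact Poisson 95% intervals of 4.12 to 17.1, 2.81 to 14.4, 12.2 to 30.9 and 6.2 to 21, which cover counting error only. Both dLN values were above both CNS values, and with no filter the difference did not pass (limma adjusted p = 0.162).

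Of the 23 tested iron and haem genes, 9 were called higher and 7 lower in CNS; scaling to the same sum of FPKM made this 7 and 11, and upper-quartile scaling 10 and 5. Tfrc, the transferrin receptor that brings iron into the cell, was at 20.7 and 22.6 FPKM in CNS and at 156 and 158 FPKM in dLN. Ferritin heavy chain (Fth1), which stores iron, was at 904 and 1293 FPKM in CNS and at 335 and 300 FPKM in dLN, while its light chain (Ftl1) did not pass the test at -0.30 ± 0.14 (SE, n = 2 per tissue, limma adjusted p = 0.109). Fth1 thus came to 173 and 189% of Ftl1 in CNS and to 45.2 and 40.8% in dLN. Urod and Fech, enzymes of haem synthesis, rose by 2.26 and 2.16 on the log2 scale. Pcbp1, an iron chaperone, and Slc25a37, a mitochondrial iron importer, fell by 0.97 and 0.96.

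Nfe2l2 was the 1 member called higher in CNS. Its level was 17.2 and 19.6 FPKM in CNS and 9.52 and 9.85 FPKM in dLN, with both CNS libraries above both dLN libraries. The log2 ratio was 0.86 ± 0.10 (SE, n = 2 per tissue, limma adjusted p = 0.00127). The RNA of its inhibitor Keap1 was higher as well, at 23.5 and 26 FPKM in CNS and 12.1 and 9.59 FPKM in dLN, a log2 ratio of 1.13 ± 0.14 (SE, n = 2 per tissue, limma adjusted p = 0.00136). Of the 13 listed Nrf2 regulators, 3 were called higher and 7 lower, with a median of -0.53. Gsk3b, a kinase that marks Nrf2 for degradation, rose by 0.80.

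The Bach repressors and 2 of the 3 small Maf partners were called lower in CNS. Mafg was at 8.27 and 11 FPKM in CNS and at 38.8 and 42.5 FPKM in dLN, and Mafk was at 13.4 and 18.4 FPKM in CNS and at 47.1 and 50.5 FPKM in dLN. Maff, the third small Maf, had a log2 ratio of -0.66 ± 0.25 and did not pass (SE, n = 2 per tissue, limma adjusted p = 0.0614). The Mafg level was 48 and 56% of that of Nfe2l2 in CNS and 407 and 432% in dLN. Bach2 was at 0.786 and 0.96 FPKM in CNS and at 11.1 and 13.2 FPKM in dLN, and Bach1 was at 4.75 and 5.39 FPKM in CNS and at 12.1 and 13.4 FPKM in dLN. Both repressors and both called partners therefore fell while Nfe2l2 and Keap1 rose.

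Further Nrf2 targets were called in both directions. Of 23 tested, 13 were called higher and 7 lower in CNS and the median of their log2 ratios was 0.47, against 1 higher and 5 lower among the members. Catalase (Cat), which decomposes hydrogen peroxide, was at 35.8 and 33 FPKM in CNS and at 8.19 and 6.29 FPKM in dLN. Osgin1 was at 17.8 and 20 FPKM in CNS, and its dLN values of 0.0304 and 0.127 FPKM stand for an estimated 1.0 and 5.0 fragments. Abcc1, an exporter of glutathione conjugates, was lower in CNS, at 10.7 and 10.9 FPKM against 39.5 and 41.8 FPKM in dLN. The pentose phosphate enzyme Tkt fell by 0.61, and Taldo1 of the same pathway, chosen after its values were seen, rose by 1.53. Scaling to the same sum of FPKM made the count 11 higher and 10 lower, and upper-quartile scaling 13 and 4. Sod2, the mitochondrial superoxide dismutase, fell by 0.70 on the log2 scale, and it was the only call downwards among 6 tested enzymes that remove superoxide or peroxide, of which 4 were called higher.

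**Figure D4:**
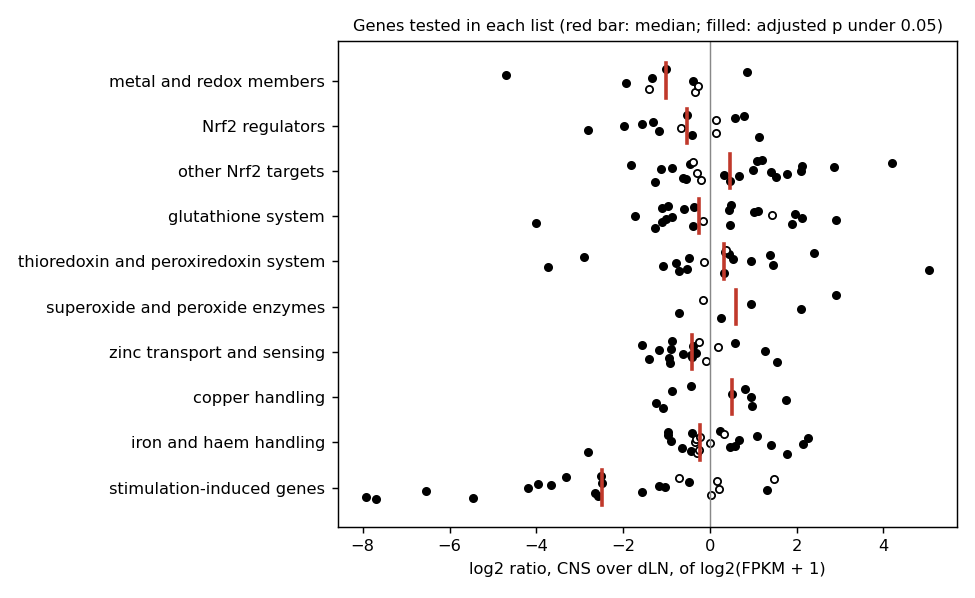
Log2 ratio of CNS to dLN for every tested gene of the members' list and of the related lists, a point per gene, with the median of each list. The members' median was -1.0, that of the further Nrf2 targets 0.47 and that of the zinc genes -0.42.

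The metallothionein genes Mt1 and Mt2 stand next to each other on chromosome 8, with 5521 bases between the end of Mt2 and the start of Mt1 in the tables' build, mm10. Mt2 was at 6.83 and 24.1 FPKM in CNS and at 32.8 and 40.2 FPKM in dLN. Both dLN libraries were above both CNS libraries, but the CNS libraries differed by 3.53 times. The log2 ratio was -1.41 ± 0.56 and did not pass (SE, n = 2 per tissue, limma adjusted p = 0.0693). Without CNS replicate 2 it was -2.25 and passed, with a limma adjusted p of 0.00379, and without CNS replicate 1 it was -0.57, with an adjusted p of 0.0729. Mt1 was at 18.8 and 41.9 FPKM in CNS and at 30 and 43.5 FPKM in dLN, so the tissues overlapped. Its log2 ratio was -0.35 ± 0.41 (SE, n = 2 per tissue, limma adjusted p = 0.459), and the sign turned to 0.21 without CNS replicate 1.

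The metallothioneins differed more between the CNS libraries than between the means of the tissues. Both were higher in CNS replicate 2, Mt1 by 2.23 times. So were the summed markers of macrophages and microglia (2.47 times), neurons (3.1 times), astrocytes (4.47 times) and neutrophils (79.5 times). Those of oligodendrocytes were not, at 0.93 times the sum in CNS replicate 1. The part of these other cell types in the metallothionein levels was not tested. Within a library Mt2 came to 36.4 and 57.5% of Mt1 in CNS and to 109 and 92.3% in dLN. Their estimated fragments ranged from 58 to 346 per library, fewer than for longer genes of like FPKM because both transcripts are short. Mt3, a metallothionein known from brain, was higher in CNS at 2.34 and 4.69 FPKM, against 0.771 and 0.256 FPKM in dLN.

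**Figure D5:**
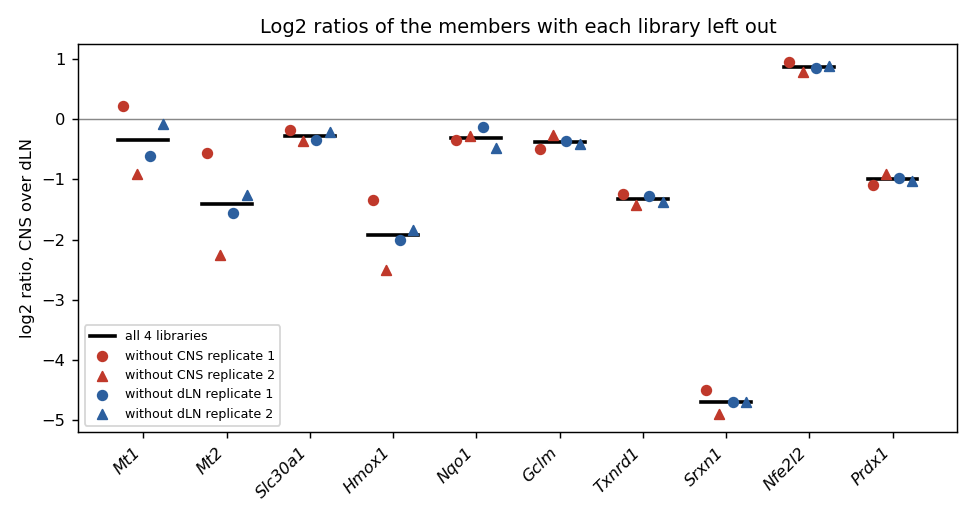
Log2 ratio of CNS to dLN of the 10 members, the untested Nqo1 included, with all 4 libraries (bars) and with each library left out in turn (points). With 1 library left in a tissue, that library is assumed to vary like the other tissue. Mt1 ran from -0.91 to 0.21 and Mt2 from -2.25 to -0.57, whereas Srxn1 stayed between -4.90 and -4.49.

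Slc30a1 encodes ZnT1, the zinc exporter of the plasma membrane and a target of Mtf1. It was at 2.64 and 3.11 FPKM in CNS and at 3.47 and 3.91 FPKM in dLN. The dLN values were slightly higher without overlap, and the log2 ratio of -0.28 ± 0.12 did not pass (SE, n = 2 per tissue, limma adjusted p = 0.098). Mtf1 was at 3.3 and 3.73 FPKM in CNS and at 7.59 and 7.44 FPKM in dLN, a log2 ratio of -0.92 ± 0.10 (SE, n = 2 per tissue, limma adjusted p = 0.00107). Of 18 tested zinc genes, 12 were called lower and 3 higher in CNS, with a median of -0.42, and upper-quartile scaling left 7 called lower and scaling to the same sum 12. The importers Slc39a10 and Slc39a6 fell by 1.56 and 1.18 on the log2 scale, and Slc30a5, which carries zinc into the secretory pathway, fell by 1.40. The importer Slc39a4 was higher in CNS, at 16.5 and 20.4 FPKM against 9.89 and 4.88 FPKM in dLN. Copper genes were divided, with 5 called higher and 4 lower of 9 tested. The copper chaperone Atox1 was at 126 and 173 FPKM in CNS and at 48.9 and 37.4 FPKM in dLN, and the copper importer Slc31a1 fell by 1.07.

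Genes that supply oxidants or respond to other stresses are given beside the share of 74.9% called among all genes. Of the 6 subunits of the phagocyte NADPH oxidase, which makes superoxide, 4 were called higher in CNS. Cyba, a membrane subunit, was at 331 and 436 FPKM in CNS and at 115 and 96.4 FPKM in dLN. Ncf4, a cytosolic subunit, was at 63.5 and 66.2 FPKM in CNS against 7.03 and 5.6 FPKM in dLN. Cybb, the catalytic subunit, was at 0.697 and 6.11 FPKM in CNS and at 0.189 and 0.139 FPKM in dLN and did not pass (limma adjusted p = 0.089), its CNS values differing in the same direction as the macrophage and microglia sum. The part of those cells was not tested.

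Of 19 heat-shock and dissociation genes, 12 were called higher and 5 lower in CNS. The inducible chaperone Hspa1b was at 1708 and 2387 FPKM in CNS and at 4.47 and 2.7 FPKM in dLN, whereas the mitochondrial chaperonin Hspd1 was at 90 and 92.3 FPKM against 435 and 440 FPKM. Of 11 tested genes that respond to glucocorticoids 8 were called higher and 1 lower in CNS. Tsc22d3 (GILZ) was at 125 and 132 FPKM in CNS and at 2.02 and 1.94 FPKM in dLN. Handling of the cells, stimulation and tissue cannot be told apart in this design.

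The order of the levels differed between the tissues chiefly through Srxn1 and Nfe2l2. In CNS the members ranked from Prdx1, at 140 ± 12.3 FPKM (SD, n = 2), over Txnrd1, Mt1, Nfe2l2, Mt2, Gclm, Hmox1, Srxn1 and Slc30a1 to Nqo1 at 0.272 ± 0.0491 FPKM (SD, n = 2). Neighbours from Txnrd1 to Srxn1 in that order had overlapping libraries and could not be ranked across libraries. Within each CNS library Txnrd1 stood above Mt1, Mt1 above Nfe2l2 and Hmox1 above Srxn1. The other neighbours in that range changed order between the CNS libraries. In dLN Prdx1 again led, at 282 ± 7 FPKM (SD, n = 2), followed by Srxn1 at 158 ± 0.162 FPKM (SD, n = 2) and Txnrd1 at 103 ± 5.12 FPKM (SD, n = 2). Mt1, Mt2 and Hmox1 came next with overlapping neighbours, and then Gclm, Nfe2l2, Slc30a1 and Nqo1 without overlap. Srxn1 thus stood above Txnrd1 and both metallothioneins in every dLN library and below all 3 in every CNS library. In turn, Nfe2l2 stood above Gclm and Hmox1 in every CNS library and below both in every dLN library.

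The genes whose centred log2(FPKM + 1) values over the 4 libraries lay closest to a member, among those whose mean reached 10 FPKM in either tissue, were named for 3 members. For Mt1 they included Dusp14 and Gadd45b, at Euclidean distances of 0.38 and 0.39. For Hmox1 they were Scarb1, Plk2 and Pacsin1, at 0.088 to 0.12, and Plk2 was at 6.68 and 15.9 FPKM in CNS and 43.8 and 47.1 FPKM in dLN. For Prdx1 they were Rpap3, Orc2 and Mrpl19, at 0.021 to 0.035. The nearest pattern to Mt1 was thus more distant than any of those named for Hmox1 or Prdx1.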

How the data were processed

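RNA of effector CD4 cells from CNS and dLN (2 libraries each) was sequenced on HiSeq2500 from TruSeq libraries. Reads were trimmed and mapped by the authors, who deposited 1 table per tissue with the FPKM of each RefSeq transcript (mm10). The tissue of each table was taken from its name, and as 1 header cell of the CNS table holds both library names, its last columns were assigned in the order of the names. The tables were joined on transcript (33819) and summed by symbol (23990); 565 transcripts without a symbol, 0.142 to 0.446% of FPKM, were left out.

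The members and lists were chosen with earlier results of these data known. Genes whose mean FPKM reached 1 in either tissue (10634) were tested by limma 3.58.1 (R 4.3.3) with trend on log2(FPKM + 1), tissue as the only term, two-sided, Benjamini-Hochberg at 0.05. The fit was tested on simulated data. Fragments per library were estimated from the spacing of low FPKM values. Per list, up to 3 called genes in each direction were named by the largest log2 ratio. Their mean had to reach 10 FPKM in either tissue. Others were named for their role (Bach1, Maff, Mtf1, Mt3, Txn1, Prdx3, Hmox2, Ftl1, Cybb, Slc3a2, Slc7a11, Cd4, Csf1r, C1qa, Fos, Fosb, Junb, Ier2, Dusp1) after values were seen. Of the genes nearest to Mt1, 1 is not reported here. Sequences come from RefSeq, GRCm38.p6. Alternatives were other pseudocounts, filters, scalings, transcripts, a replicate block and leaving out each library.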

Additional observations from a re-analysis of the deposited data

How the results depend on the processing

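Of 143 values of the 9 tested members under 16 alternatives, 130 kept both the direction and the outcome of the test. The other filters, the replicate block and the minimum fold cannot alter a log2 ratio, so there only the outcome could change. The number of genes called was 7968 and fell to 4168 with a minimum fold of 2, under which Nfe2l2 (0.86) and Gclm (-0.39) were no longer called. Gclm was also no longer called at -0.17 with the same upper quartile and at -0.39 with no filter on low values. Mt2 passed at -1.60 with the same sum of FPKM, at -1.47 with the median of ratios and at -1.41 with the replicate number as a block (limma adjusted p = 0.0268), and Slc30a1 passed at -0.43 with the same sum. Nqo1, which lay under the filter, moved to -0.84 with a pseudocount of 0.1. Leaving out each library in turn gave log2 ratios of -0.91 to 0.21 for Mt1, which reversed to 0.21 without CNS replicate 1, of -2.25 to -0.57 for Mt2 and of -0.50 to -0.27 for Gclm. The cause was not tested. The replicate block gave 7828 genes and 7 members called, against 6 members without it. Differences between equally numbered replicates correlated at 0.0933 across genes. Y-linked Eif2s3y was at 0 in dLN and Xist at 0 and 0.003 in CNS, so the 2 tissues came from mice of different sex. Equally numbered libraries were therefore taken to share only a number. The scalings shifted the median of all genes by -0.18 (same sum), 0.21 (upper quartile) and -0.06 (median of ratios), and 50.4% of calls were higher in CNS as deposited, against 42.9, 59.7 and 48.7%. Nqo1 rests on few fragments, with at most 20 estimated fragments per library.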
